A study of Mus musculus with 30 samples.

Results

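Gphn encodes gephyrin and Glra2 encodes the alpha 2 subunit of the glycine receptor. Every splicing event that the authors' 4 deposited tables assign to either symbol was taken, whatever its type, which gave 20 of 6491 listings and 12 of 4923 distinct events. Gphn had 16 listings of 10 events, and Glra2 had 4 listings of 2 events. The comparisons ask how the alternative RNA of these genes differs between neurons that lost Nova2 and neurons that kept it, in excitatory, inhibitory and Purkinje cell material of the mouse brain.

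The series holds 30 samples in 10 groups of 3, and the tables rest on 18 of them in 6 groups. Emx1-Cre Nova2 cKO and Emx1-Cre control neurons, and Gad2-Cre Nova2 cKO and Gad2-Cre control neurons, were sorted by flow cytometry from cortex at embryonic day 18.5. Pcp2-Cre Nova2 cKO and Pcp2-Cre control material was the dissected Purkinje cell layer of the cerebellum at postnatal day 28. A cKO is a conditional knockout, in which Cre deletes Nova2 in the cells where the driver promoter is active. Emx1-Cre is active in the lineage of cortical excitatory neurons, Gad2-Cre in GABAergic inhibitory neurons and Pcp2-Cre in Purkinje cells. All these mice were C57BL/6J, all carried a Cre according to their genotype labels, controls included, and ribosomal RNA was removed from all libraries. The dissected layer also holds cells other than Purkinje cells, in which Pcp2-Cre is not active. The sources used here do not name the marker used for sorting, and splicing tables carry no expression level against which the purity of a sort could be checked.

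Each table gives 1 inclusion level per event and group, a fraction from 0 to 1 that the authors pooled over 3 libraries. It is taken as the part of the RNA at that event that has the isoform named first. There is therefore no spread between libraries, no SD and no n behind a level, and the test of an event is the authors' p-value with its false discovery rate (FDR). Whether the 3 libraries of a group came from separate animals is not stated in the labels, so that the spread behind the FDR may be partly technical. The depth of the samples is unknown, and the authors' coverage of an event stands in for it. Only events with an FDR of at most 0.05, a difference of at least 0.1 and a coverage of at least 20 are listed. An event that is missing from a table was therefore either not measured well enough or did not pass. The tables list 2682 events for Emx1-Cre, 1970 for Gad2-Cre, 603 for the Purkinje layer and 1236 for the Emx1-Cre against the Gad2-Cre controls. No event of Nova2 is listed in any of the 4 tables, so the deletion could not be checked in these data.

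Gephyrin forms the scaffold that anchors glycine receptors and many GABA-A receptors under inhibitory synapses, and the same protein carries out the last steps of molybdenum cofactor synthesis in all tissues. Its central linker is rich in alternative exons, named cassettes. Glycine receptors are chloride channels, and the alpha 2 subunit is the form that prevails in the embryonic brain. NOVA1 and NOVA2 are neuronal RNA-binding proteins that recognise the tetramers CCAC and CCAT as well as TCAC and TCAT. In the established account, binding within an alternative exon or just upstream of it favours skipping, and binding just downstream favours inclusion. A gephyrin cassette and exon 3A of Glra2 are known as NOVA targets in mouse.

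The gephyrin exon on which the cortical results turn is 108 nt long and lies at chr12:78493950-78494057 on the plus strand (mm10). In GENCODE M21 it is a coding exon of 1 of the 3 Gphn transcripts, exon 8 of 23 in Gphn-202 (gene ENSMUSG00000047454). It starts at codon phase 0, adds 36 codons and leaves the reading frame intact. An intron of 1639 nt precedes it and one of 10559 nt follows it. Its length and place between the linker exons are those of the cassette known as C3, which gephyrin outside the nervous system usually carries and neuronal gephyrin mostly lacks. The 57 nt and 42 nt exons further downstream, at chr12:78522898-78522954 and chr12:78532657-78532698, are coding exons of Gphn-201. The 42 nt exon is shown because most of the Purkinje layer events turn on it. The 57 nt exon is shown because it is the upstream flanking exon in several of them. Capitals mark each CCAC or CCAT or TCAC or TCAT on the sense strand, the bases are those of the GENCODE M21 transcripts, and overlapping matches were counted separately.

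Gphn 108 nt exon: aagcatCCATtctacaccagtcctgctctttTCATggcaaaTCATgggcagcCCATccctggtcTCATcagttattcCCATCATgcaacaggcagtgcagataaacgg
Gphn 57 nt exon: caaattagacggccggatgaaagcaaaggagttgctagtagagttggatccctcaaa
Gphn 42 nt exon: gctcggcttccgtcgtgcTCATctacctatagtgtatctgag

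The 108 nt exon holds 7 such tetramers, of which CCAT and TCAT share a base in the run CCATCAT. Among 340 GENCODE cassette exons of 80 to 140 nt that the tables list, 2.06% hold at least 7, 80% hold at least 1 and the median is 2. The 57 nt exon, a flanking exon in the listed events, holds 0. Of 204 listed cassette exons of 40 to 70 nt, 52.5% hold at least 1. In the 42 nt exon there is 1, and 42.1% of 121 listed exons of 30 to 50 nt hold at least 1. These are counts of letters in exons and show no binding, and the flanking introns were not searched. A 105 nt form of the exon, described below, has another junction, which is not printed. Skipping of the exon and inclusion of its 108 nt form give the mature RNA the following junctions. Each has 30 bases from the upstream exon in lower case and 30 bases from the next exon in capitals.

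Gphn skipping junction: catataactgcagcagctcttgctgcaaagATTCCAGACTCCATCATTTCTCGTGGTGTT
Gphn inclusion junction: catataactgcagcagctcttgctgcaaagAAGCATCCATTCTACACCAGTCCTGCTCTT

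The Glra2 exon on which the other large change turns is 244 nt long, at chrX:165325680-165325923 on the minus strand, and is no exon of the single Glra2 transcript in GENCODE M21 (gene ENSMUSG00000018589). It lies in the intron of 2167 nt between exons 1 and 2, 878 nt after exon 1 and 1045 nt before exon 2. Its length is not a multiple of 3. Exon 2 lies at chrX:165324501-165324634 and is 134 nt long. The annotated RNA, without the 244 nt exon, joins exons 1 and 2 as follows, with exon 1 in lower case and exon 2 in capitals.

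Glra2 junction of exons 1 and 2: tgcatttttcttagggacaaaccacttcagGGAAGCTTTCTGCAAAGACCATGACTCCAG

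**Figure D1:**
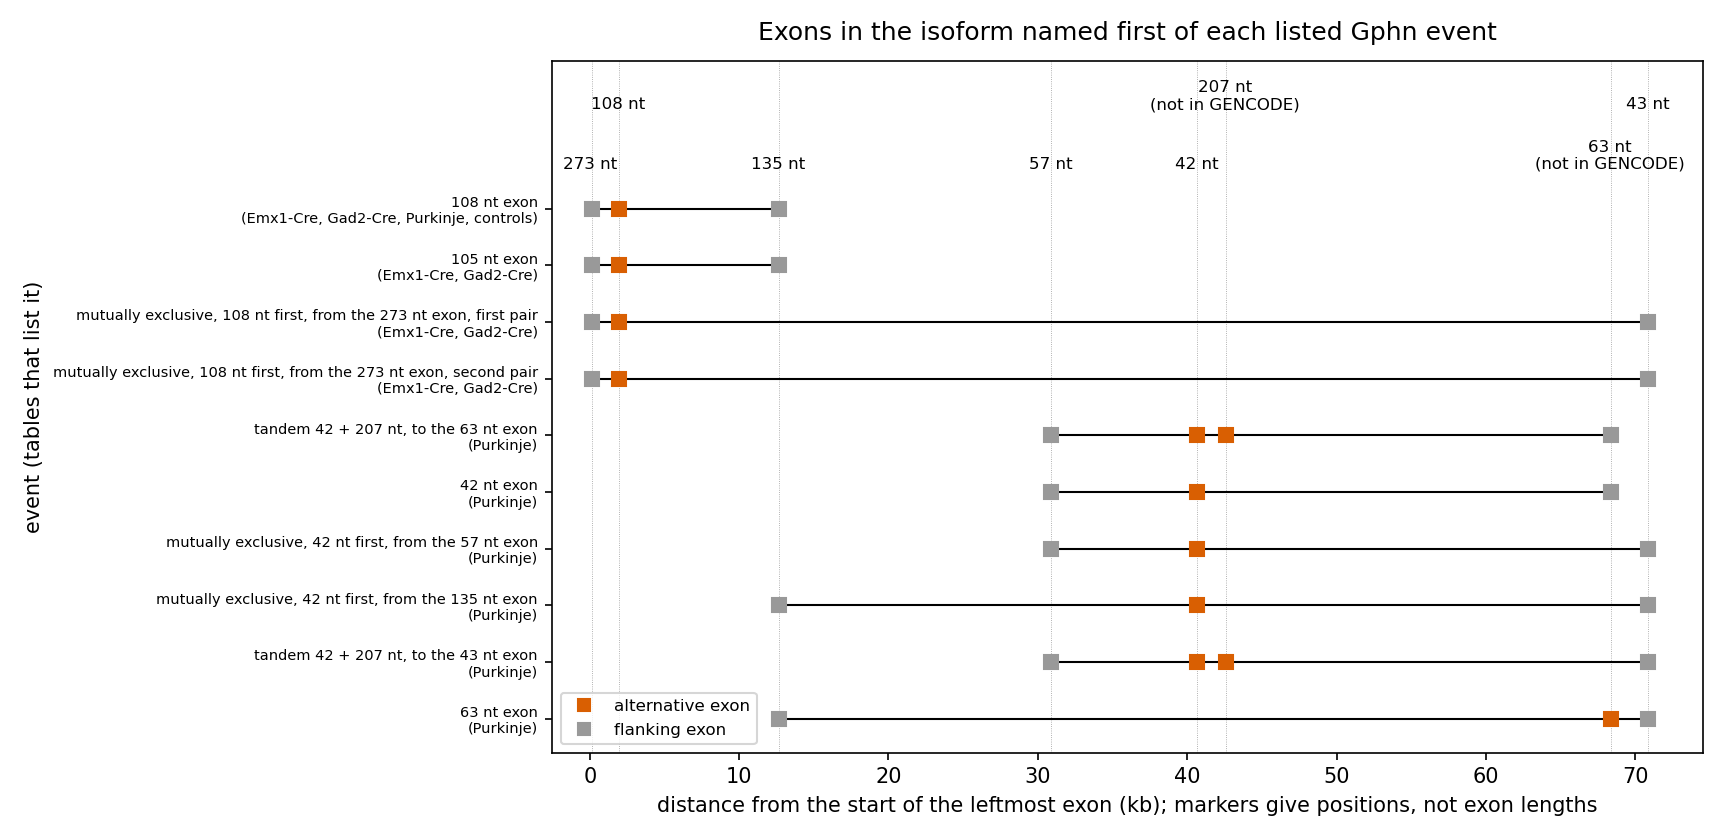
Exons of the 10 listed Gphn events, with the distance from the start of the leftmost exon in kb on the x axis and 1 event per row, followed by the tables that list it. Orange squares are alternative exons and grey squares flanking exons of the isoform the authors name first. The cortical events turn on the 108 nt exon 1.9 kb from the left end, and the events listed for the Purkinje layer alone turn on exons 40.6 to 68.3 kb from it.

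In cortical neurons without Nova2, most gephyrin RNA measured at the 108 nt exon carried it, in both classes, whereas in control neurons most skipped it. The authors' deposited Emx1-Cre table gives an inclusion level of 0.881 in Emx1-Cre cKO neurons and 0.180 in Emx1-Cre control neurons, a change of 0.702 with a coverage of 101 (authors' FDR 6.76e-37). For Gad2-Cre, the authors' deposited table gives 0.693 in cKO neurons and 0.0517 in control neurons, a change of 0.642 with a coverage of 154 (authors' FDR 1.6e-38). Both cKO levels lie above both control levels. In bulk RNA, cells that include the exon cannot be told apart from inclusion in a part of each cell's RNA, nor fewer cells of a type from less RNA per cell. By size of change this event ranked 54th of 2682 for Emx1-Cre and 35th of 1970 for Gad2-Cre in the authors' deposited tables. Of all listed events, 7.87% changed by at least 0.5 in size for Emx1-Cre and 7.51% for Gad2-Cre.

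The exon has a second listed form that starts 3 bases further in, 105 nt long (chr12:78493953-78494057), and is not a GENCODE exon. The bases that it lacks are aag, which end in AG, as the end of an intron does. For this form the authors' deposited table gives 0.789 in Emx1-Cre cKO neurons and 0.0915 in Emx1-Cre control neurons, a change of 0.697 (authors' FDR 6.64e-37). In Gad2-Cre neurons the authors' deposited table has it at 0.501 in cKO and 0.0383 in control, a change of 0.462 (authors' FDR 1.49e-38). Both forms have the same flanking exons, the same 3′ end and, within each table, the same authors' p-value, so they are not 2 independent observations of the exon. Both add whole codons, 36 and 35.

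A pair of mutually exclusive events also has the 108 nt exon in the isoform named first, here joined from the 273 nt exon upstream to the 43 nt exon 70.8 kb from the left end of the map. The partner isoform of either event is not described in the deposited intervals, so the events are called the first and the second pair. The first pair stood at 0.424 in Emx1-Cre cKO and 0.108 in Emx1-Cre control neurons (authors' FDR 1.50e-11), in the authors' deposited table. Its level in the authors' deposited Gad2-Cre table was 0.391 in cKO and 0.0159 in control neurons (authors' FDR 1.10e-20). The second pair had 0.449 in Emx1-Cre cKO and 0.198 in Emx1-Cre control neurons (authors' FDR 1.03e-10), and 0.462 in Gad2-Cre cKO and 0.0349 in Gad2-Cre control neurons (authors' FDR 2.22e-19), in the authors' deposited tables. All 4 Gphn events thus moved toward the isoform with this exon, in either of its forms, in both classes, and their intervals overlap.

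The Glra2 exon was nearly absent in control neurons of both classes and was carried by most of the RNA measured there in both cKO groups. In the authors' deposited table its inclusion level was 0.854 in Emx1-Cre cKO neurons and 0.000257 in Emx1-Cre control neurons, a change of 0.854 with a coverage of 100 (authors' FDR 3.04e-63). Gad2-Cre cKO neurons had 0.571 and Gad2-Cre control neurons 0.000199 in the authors' deposited table, a change of 0.571 with a coverage of 142 (authors' FDR 2.27e-46). The event ranked 16th of 2682 by size for Emx1-Cre and 75th of 1970 for Gad2-Cre. Because coverage is 1 value for both groups of a comparison, the reads behind the control levels are unknown, and no fold was computed.

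Cassette exons outside GENCODE were common in these tables. They made up 38.8% of the 912 listed cassettes for Emx1-Cre, where 46.0% of them were higher in cKO than in control neurons. For Gad2-Cre they made up 38.4% of the 726, and 31.5% of them were higher in cKO than in control neurons. Of 320 cassettes listed for both classes, 4 had a control level under 0.01 in both, in Glra2, Map2 and Ppp3cb. Of these, the Glra2 exon alone was over 0.5 in both cKO groups. These limits were set with the Glra2 values known and are a description.

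The second Glra2 event is an alternative 3′ splice site after exon 2. The isoform named first uses an acceptor 103 nt upstream of the annotated one. Its exon is 171 nt long (chrX:165289599-165289769), and the GENCODE exon with the same 3′ end has 68 nt. The partner isoform is not described in the deposited intervals, so whether it uses the annotated acceptor is unknown. The level of the isoform named first in the authors' deposited table was 0.277 in Emx1-Cre cKO and 0.101 in Emx1-Cre control neurons, a change of 0.177 with a coverage of 40 (authors' FDR 0.00574). In Gad2-Cre neurons the authors' deposited table gives 0.210 in cKO and 0.0519 in control, a change of 0.158 with a coverage of 33 (authors' FDR 7.50e-10). These changes are below the median size of 0.209 over all events listed for Emx1-Cre and of 0.202 for Gad2-Cre. The mutually exclusive exons 3A and 3B of Glra2 gave no mutually exclusive event in any of the 4 tables. Whether the exon of this acceptor event is 3A or 3B was not determined.

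**Figure D2:**
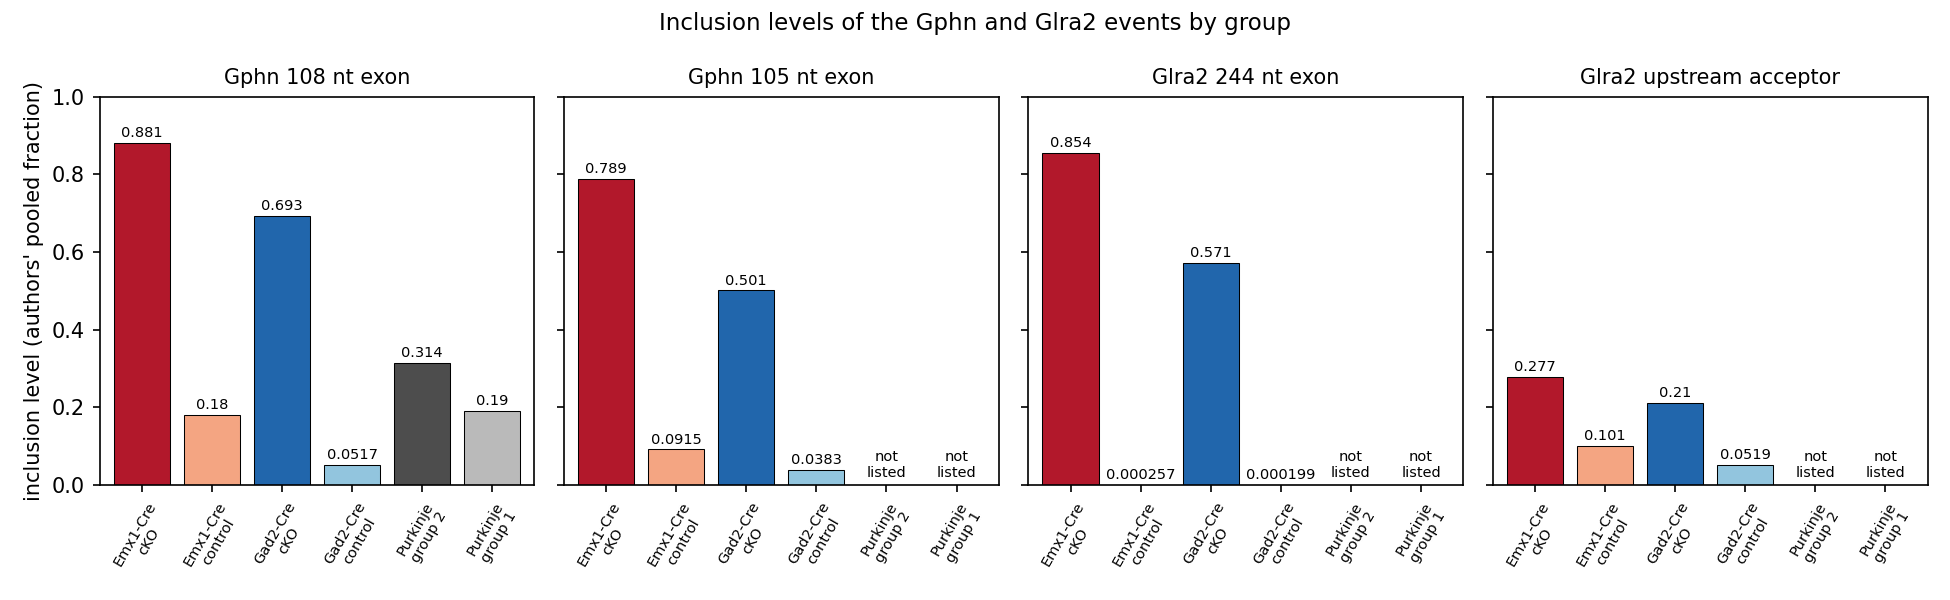
Inclusion level, a fraction from 0 to 1, of the Gphn 108 nt and 105 nt exons, the Glra2 244 nt exon and the Glra2 upstream acceptor, with 1 bar per group. Bars are the authors' pooled levels, so they have no error bars, and "not listed" means that the event is absent from the Purkinje layer table. Each cortical cKO bar stands above its control bar, and the Glra2 exon is at 0.000257 and 0.000199 in the Emx1-Cre and Gad2-Cre controls.

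In each cortical comparison 6 of 6 listed events of Gphn and Glra2 were higher in cKO than in control neurons, against 48.4% of all listed events for Emx1-Cre and 41.4% for Gad2-Cre. Among cassettes alone, 3 of 3 were higher in each class, against 46.9% of all listed cassettes for Emx1-Cre and 36.2% for Gad2-Cre. Counting overlapping events of a gene once leaves 2 of 2 in each class. The same 6 events were listed for both classes, whereas 823 events overall were, which is 30.7% of the events of Emx1-Cre and 41.8% of those of Gad2-Cre.

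**Figure D3:**
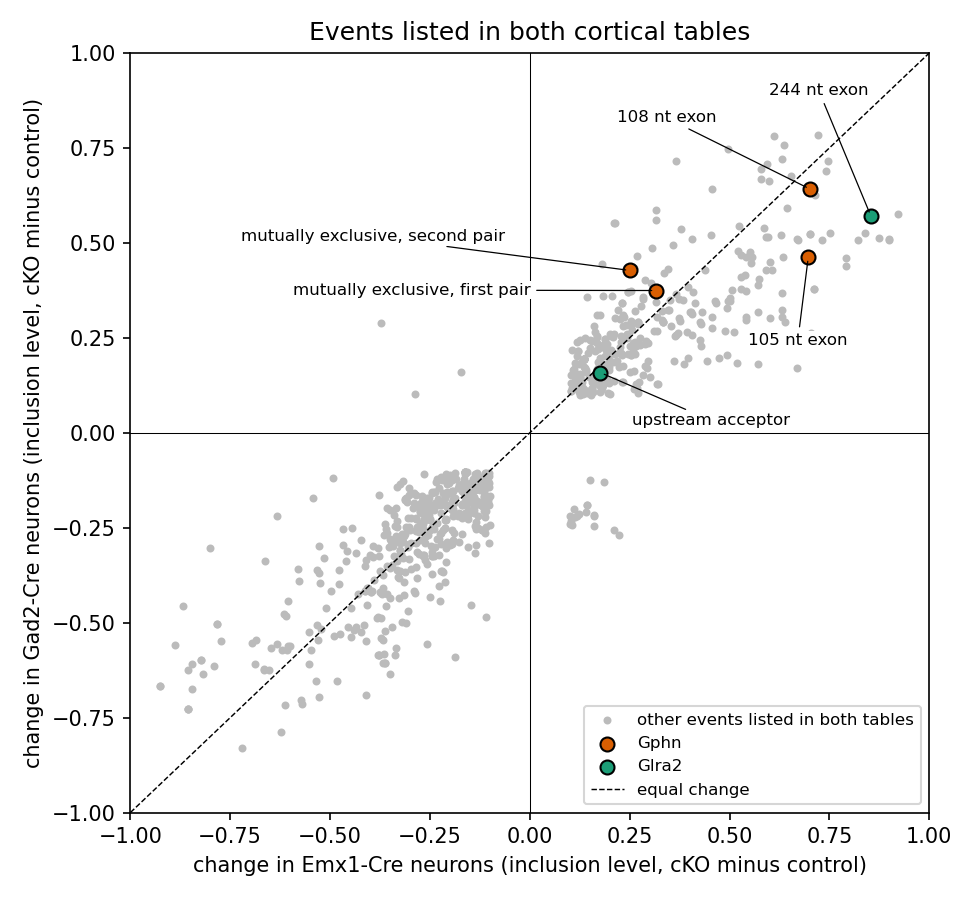
Change in inclusion level (cKO minus control, a difference of fractions) in Emx1-Cre neurons on the x axis and in Gad2-Cre neurons on the y axis for the 823 events listed for both classes, in grey, with Gphn in orange and Glra2 in green. All 6 Gphn and Glra2 points lie in the upper right part, with the Glra2 244 nt exon at 0.854 in Emx1-Cre and 0.571 in Gad2-Cre, and the Gphn 108 nt exon at 0.702 in Emx1-Cre and 0.642 in Gad2-Cre.

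Whether the classes differed in the size of these changes was tested on the difference of the changes, Emx1-Cre minus Gad2-Cre. Each change was given the standard error that a two-sided normal test would need to return the authors' p-value, and p was adjusted by Benjamini-Hochberg over the 823 shared events, of which 106 (12.9%) passed an adjusted p of 0.05, 73 of them (8.87%) with the larger value in Emx1-Cre neurons. The 2 comparisons share no library, but the test is approximate, since no values per library are at hand.

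The Glra2 244 nt exon changed more in Emx1-Cre than in Gad2-Cre neurons, by 0.283 (standard error 0.0631, 95% interval 0.159 to 0.406, adjusted p = 0.00022). On the log-odds scale, which allows for levels near 0 and 1, its difference of 1.48 passed as well (adjusted p = 0.0220). That scale holds levels between 0.01 and 0.99, and both control levels lie below 0.01, so there the difference is that of the cKO levels. The limit of 0.01 also enters the standard error on that scale. Whether the difference passes at another limit was not tested.

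The 108 nt exon of Gphn showed no such difference, with 0.0601 (standard error 0.0718, interval -0.0807 to 0.201, adjusted p = 0.702). The interval leaves room for a difference of up to 0.201 in inclusion level, and on the log-odds scale the sign turned, with -0.20 (adjusted p = 0.838). For the 105 nt form the difference was 0.235 (interval 0.110 to 0.359, adjusted p = 0.0029), but the form shares its authors' p-value with the 108 nt event, so that its spread is not its own. On the log-odds scale the 105 nt form did not pass, with 0.39 (adjusted p = 0.564).

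The second mutually exclusive pair changed less in Emx1-Cre than in Gad2-Cre neurons, by -0.177 (interval -0.288 to -0.0661, adjusted p = 0.0167), and on the log-odds scale by -1.98 (adjusted p = 3.31e-06). Its cKO levels were close, 0.449 in Emx1-Cre and 0.462 in Gad2-Cre neurons. The control levels, 0.198 in Emx1-Cre and 0.0349 in Gad2-Cre neurons, account for most of that difference. The first pair had a difference of -0.059 (adjusted p = 0.60), but passed on the log-odds scale with -1.87 (adjusted p = 0.000453). For the Glra2 upstream acceptor the difference was 0.0184 (interval -0.0841 to 0.121, adjusted p = 0.890), with the opposite sign on the log-odds scale at -0.35 (adjusted p = 0.666).

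**Figure D4:**
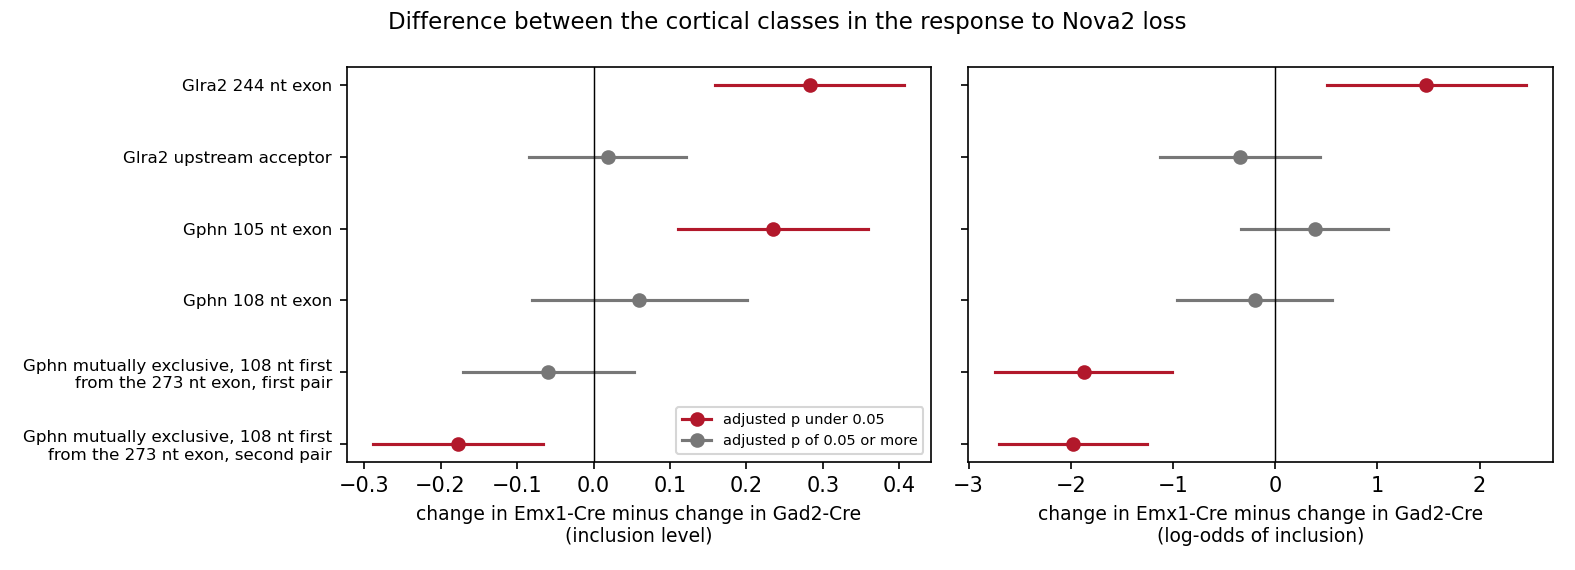
Difference between the classes in the change of each event listed for both, Emx1-Cre minus Gad2-Cre, as a difference of inclusion levels on the left and of log-odds on the right. Points are estimates and lines 95% intervals, in red where the adjusted p is under 0.05. The Glra2 244 nt exon lies right of 0 on both scales and the second mutually exclusive pair of Gphn left of 0 on both.

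Among controls, the 108 nt exon differed between the classes with Nova2 present. The authors' deposited table of controls gives 0.180 in Emx1-Cre and 0.0517 in Gad2-Cre controls, a difference of 0.128 with a coverage of 52.7 (authors' FDR 0.0193). Of all events listed there, 36.3% were higher in the Emx1-Cre controls, as were 39.5% of the cassettes, and 2.35% differed by at least 0.5. The difference ranked 1033rd of 1236 by size. For the 105 nt form, the first mutually exclusive pair and both Glra2 events the control levels of the 2 classes lie less than 0.1 apart, so that no listing was possible. The second pair has control levels of 0.198 in Emx1-Cre and 0.0349 in Gad2-Cre neurons in the authors' deposited cKO tables, more than 0.1 apart, and is not listed among the controls.

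In the Purkinje layer the authors' deposited table does not say which group is the knockout, and its groups are called group 2 and group 1. The 108 nt exon stood at 0.314 in group 2 and 0.190 in group 1, in the authors' deposited table, a difference of 0.124 with the highest coverage of any Gphn or Glra2 listing, 219 (authors' FDR 0.000795). It ranked 501st of 603 by size. The order of the 108 nt levels over all 6 groups was 0.881 in Emx1-Cre cKO, 0.693 in Gad2-Cre cKO, 0.314 and 0.190 in Purkinje layer groups 2 and 1, 0.180 in Emx1-Cre control and 0.0517 in Gad2-Cre control neurons, in the authors' deposited tables. Levels of neighbouring groups in that order were tested only between Purkinje layer groups 2 and 1 and between the controls of the 2 cortical classes. The Purkinje layer differs from the cortex in age and dissection as well. This event was 1 of 6, all cassettes in different genes, that were listed in all 4 tables.

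The other 6 Purkinje layer events lie downstream of the 108 nt exon, and none of them was listed for cortex. Of all 603 Purkinje layer events, only 26.7% were also listed for Emx1-Cre and 24.4% for Gad2-Cre, so this is common there. Most of the 6 Gphn events turn on the 42 nt exon, which is 40.6 kb from the left end of the map. Some of them also hold an exon of 207 nt (chr12:78534563-78534769) that is not in GENCODE. Spliced between the 57 nt exon and a 63 nt exon (chr12:78560360-78560422, not in GENCODE), the 42 and 207 nt exons together had 0.676 in group 2 and 0.122 in group 1 in the authors' deposited table, a difference of 0.553 with a coverage of 29 (authors' FDR 1.11e-06). This was the 11th largest of 603 differences, and 2.99% of the listed events differed by at least 0.5. The 42 nt exon alone, between the same exons, had 0.692 in group 2 and 0.267 in group 1 in the authors' deposited table, with a coverage of 22 (authors' FDR 2.73e-05).

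Where the 42 nt exon was named first of a mutually exclusive pair, the authors' deposited table gives 0.556 in group 2 and 0.137 in group 1 when joined from the 57 nt exon (authors' FDR 0.000529). Joined from the 135 nt exon (chr12:78504617-78504751), it had 0.486 in group 2 and 0.181 in group 1 in the authors' deposited table (authors' FDR 0.000540). Both mutually exclusive events have the same authors' p-value and share the 42 nt and 43 nt exons, so they are not independent observations. The 42 and 207 nt exons spliced to the 43 nt exon had 0.264 in group 2 and 0.115 in group 1 in the authors' deposited table (authors' FDR 0.0117). That difference was 0.149, 396th of 603 by size. The 63 nt exon went the other way, at 0.0703 in group 2 and 0.244 in group 1 in the authors' deposited table, with a coverage of 91 (authors' FDR 0.00296). The difference of 0.553 is for the 42 and 207 nt exons joined to this 63 nt exon, which was mostly skipped at its own event in both groups.

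Group 2 was therefore the higher one at 6 of 7 Gphn events, beside 67.8% of all events listed for the Purkinje layer. Of its 3 cassettes 2 were higher in group 2, beside 70.5% of all cassettes listed there. All these alternative exons, of 42, 63, 108 and 207 nt, are multiples of 3. The 7 events overlap along the gene and count as 1 when overlapping intervals are merged. A median gene in that table had 1 event, and 15 genes, Gphn included, had at least 7. No Glra2 event was listed for the Purkinje layer.

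The cassette events most like the 108 nt exon, by the distance between their 4 pooled cortical levels among 318 other cassettes, were in Smarcc2, Sh2b1, Sorbs2, Agfg1 and Grik2. The nearest, a 66 nt exon of Smarcc2 (chr10:128488294-128488359, distance 0.0405), encodes part of a chromatin remodelling subunit. It had 0.868 in Emx1-Cre cKO, 0.154 in Emx1-Cre control, 0.704 in Gad2-Cre cKO and 0.0781 in Gad2-Cre control neurons in the authors' deposited tables. A 139 nt exon of Grik2, a kainate receptor subunit (distance 0.156), stood at 0.765 in Emx1-Cre cKO, 0.136 in Emx1-Cre control, 0.605 in Gad2-Cre cKO and 0.0842 in Gad2-Cre control neurons in the authors' deposited tables.

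For the Glra2 244 nt exon the nearest of 319 other cassettes were 3 events of Lmtk3 that share an end, a 100 nt exon of Dlg3, and the 105 nt form of the Gphn exon itself (distance 0.138). The nearest Lmtk3 event, a 46 nt exon of a membrane-bound kinase gene, had 0.915 in Emx1-Cre cKO, 0.0152 in Emx1-Cre control, 0.517 in Gad2-Cre cKO and 0.00622 in Gad2-Cre control neurons in the authors' deposited tables. The Dlg3 exon, in a gene for a scaffold of excitatory synapses, was at 0.865 in Emx1-Cre cKO, 0.0256 in Emx1-Cre control, 0.622 in Gad2-Cre cKO and 0.0947 in Gad2-Cre control neurons in the authors' deposited tables. Likeness here is in level only, over 4 groups.

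Other genes of the inhibitory synapse with a listed event moved in both directions. How many genes could have been listed is unknown, so the number listed has no base rate, and a gene with several events can have events in either direction. Of 68 genes on 7 lists, taken by their event of largest difference, 9 were listed for Emx1-Cre, 4 higher and 5 lower in cKO than in control, beside 50.8% of all listed genes that were higher. Their median change was -0.145, against 0.104 over all listed genes. That median is the value of Nlgn3, whose other listed event had a change of 0.142, so neither the sign of the median nor the 4 to 5 split is firm. For Gad2-Cre 8 were listed, 5 higher and 3 lower, beside 48% of all genes that were higher, with a median of 0.140 against -0.109. The Purkinje layer had 4, of which 3 were higher in group 2, beside 73.4% of all genes, with a median of 0.181 against 0.145. In the table of controls 4 were listed, all higher in Emx1-Cre by their largest event, beside 38.6% of all genes, with a median of 0.296 against -0.146. These counts include Gphn and Glra2.

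Among receptors, Glra2 was the only one of 5 glycine receptor genes with a listed event in any table. Of 19 GABA-A receptor genes, 2 were listed for Emx1-Cre and 0 elsewhere. Gabra2, the alpha 2 subunit, had 0.879 in Emx1-Cre cKO and 0.589 in Emx1-Cre control neurons at an alternative 3′ splice site in the authors' deposited table (authors' FDR 0.000349). Gabra3, the alpha 3 subunit, had 0.712 in Emx1-Cre cKO and 0.489 in Emx1-Cre control neurons in the authors' deposited table (authors' FDR 0.0126), in an interval also assigned to Gm14734. Neither of the 2 GABA-B receptor genes was listed, and of the 4 genes for molybdenum cofactor synthesis Gphn was the only one.

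Of 25 genes for the scaffold and its partners, Gphn was listed in all 4 tables. Enah, an actin regulator that binds gephyrin, fell to 0.00946 in Emx1-Cre cKO neurons, against 0.273 in Emx1-Cre controls, at a 12 nt exon in the authors' deposited table (authors' FDR 8.35e-08). Its largest event for Gad2-Cre was a different one and lower as well. There Enah had 0.543 in Gad2-Cre cKO and 0.869 in Gad2-Cre control neurons in the authors' deposited table (authors' FDR 2.12e-12). That event was also listed for Emx1-Cre, with 0.542 in cKO and 0.782 in control neurons in the authors' deposited table (authors' FDR 3.6e-06). Of the 5 Enah events listed for Emx1-Cre, 4 were lower and 1 was higher in cKO than in control neurons. Dmd, which encodes dystrophin, a component of some GABAergic synapses, had its 39 nt exon at 0.589 in Gad2-Cre cKO and 0.429 in Gad2-Cre control neurons in the authors' deposited table (authors' FDR 0.0290). The same Dmd exon was at 0.635 in group 2 and 0.389 in group 1 of the Purkinje layer in the authors' deposited table (authors' FDR 0.00389). At its larger event Nlgn3, a postsynaptic adhesion molecule, had 0.629 in Emx1-Cre cKO and 0.774 in Emx1-Cre control neurons in the authors' deposited table (authors' FDR 0.0138), in an interval also assigned to Gm21986. The other Nlgn3 event went the opposite way, with 0.417 in Emx1-Cre cKO and 0.275 in Emx1-Cre control neurons in the authors' deposited table (authors' FDR 0.0411).

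Among the genes for partners across the synaptic cleft, the largest events of Ptprd and Nrxn3 were lower in cKO than in control neurons of both cortical classes. For Ptprd the other events did not all follow, since 5 of its 7 events were lower in Emx1-Cre cKO neurons and 6 of 13 in Gad2-Cre cKO neurons. Nrxn3 had 1 event in each class. Ptprd, a receptor phosphatase that organises synapses, fell to 0.20 in Emx1-Cre cKO neurons, against 0.693 in Emx1-Cre controls, at an 18 nt exon in the authors' deposited table (authors' FDR 7.93e-06). A tandem event of Ptprd was at 0.549 in Gad2-Cre cKO and 0.839 in Gad2-Cre control neurons in the authors' deposited table (authors' FDR 0.0299). Nrxn3, a presynaptic adhesion molecule, shared its 27 nt exon between the classes, with 0.467 in Emx1-Cre cKO and 0.731 in Emx1-Cre control, and 0.695 in Gad2-Cre cKO and 0.804 in Gad2-Cre control neurons, in the authors' deposited tables (authors' FDR 0.0117 for Emx1-Cre and 1.70e-06 for Gad2-Cre). The exon was lower in cKO neurons of both classes.

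Partners across the cleft were also listed elsewhere. In the Purkinje layer the authors' deposited table has a tandem event of Nrxn3 at 0.436 in group 2 and 0.674 in group 1 (authors' FDR 0.0290). Among controls, a 24 nt exon of Nrxn2 had 0.448 in Emx1-Cre and 0.128 in Gad2-Cre controls in the authors' deposited table (authors' FDR 2.05e-09). Of the 6 listed Nrxn2 events, 4 went the other way, and the largest of these differed by -0.316, nearly as much as the 0.320 of the 24 nt exon. A tandem event of Ptprd had 0.668 in Emx1-Cre and 0.129 in Gad2-Cre controls in the authors' deposited table (authors' FDR 9.11e-07).

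Of 8 genes for transmitter supply and chloride transport, Gad1, which makes GABA, was listed for Gad2-Cre alone. It had 0.471 in Gad2-Cre cKO and 0.260 in Gad2-Cre control neurons at an 86 nt exon in the authors' deposited table (authors' FDR 4.75e-17). Of 18 markers of astrocytes, oligodendrocytes, microglia and endothelial cells, Slc1a2, an astrocyte glutamate transporter, was listed for Emx1-Cre, and 0 were listed elsewhere. It had 0.309 in Emx1-Cre cKO and 0.0594 in Emx1-Cre control cells in the authors' deposited table (authors' FDR 9.65e-07). A listing measures splicing and not the amount of a marker, so whether other cells had a part in the Gphn and Glra2 levels was not tested.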

How the data were processed

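RNA-seq of sorted cortical neurons and dissected Purkinje cell layer was analysed from the authors' splicing tables. Per the labels, splicing was quantified with Quantas on mm10, and the submitters' processing notes also name kallisto and edgeR with no role; aligner, versions and strandedness are not given in the sources used here. Per the file headers, each deposited event has 1 inclusion level per group (a fraction pooled over 3 libraries), their difference (a score, the level of group 1 minus that of group 2), a coverage signal whose definition is not given, and the authors' p-value and FDR. Changes printed here are cKO minus control, Purkinje layer group 2 minus group 1, and Emx1-Cre minus Gad2-Cre controls. The labels name the control first for Emx1-Cre and Gad2-Cre and name no order for the Purkinje layer. Control levels were equal, within 1e-06, in the table of controls and the cKO tables at 307 of 307 and 323 of 323 shared events. Events were matched by name and isoforms, and the deposited intervals gave positions.

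The members and the gene lists were chosen with earlier results of these data known. Every Gphn and Glra2 event is named, list genes by their event of largest difference, and like events as the 5 nearest by Euclidean distance. A gene counts for each symbol of an event's interval. Exons and sequences came from GENCODE M21 on GRCm38 (mm10), and 59.0% of 1730 listed cassette exons are GENCODE exons. The difference of changes was computed with Python 3.11.15, pandas 2.3.3, NumPy 2.4.6 and SciPy 1.17.1. Alternatives were an FDR of 0.01, a difference of 0.2, a coverage of 50, overlapping events counted once, cassettes alone and the log-odds scale. Not analysed here were 12 samples of 4 more groups. One gene of the lists enters their counts and medians, and its values are not reported here.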

Additional observations from a re-analysis of the deposited data

Results flagged for a closer look

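For 3 events the change in Emx1-Cre neurons differed from that in Gad2-Cre neurons by the test of the difference itself, computed from the authors' deposited tables. For the Glra2 244 nt exon the change was larger in Emx1-Cre neurons by 0.283, with an adjusted p of 0.00022. It passed on the log-odds scale with both control levels held at 0.01, and no other limit was tried. For the 105 nt form of the Gphn exon the change was larger in Emx1-Cre neurons by 0.235, with an adjusted p of 0.0029, and it did not pass on the log-odds scale. Its spread is not its own, since it shares the authors' p-value with the 108 nt event. By the same test the 108 nt event differed by 0.0601 (adjusted p = 0.702). For the second mutually exclusive pair of Gphn the difference was -0.177, with an adjusted p of 0.0167, and it passed on the log-odds scale as well. It lay mostly in the control levels, 0.198 in Emx1-Cre and 0.0349 in Gad2-Cre neurons, while the cKO levels were 0.449 and 0.462. The second pair is not listed in the authors' own comparison of these controls.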

How the results depend on the processing

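With overlapping intervals of a gene counted once, the listed events were 2 for Emx1-Cre, 2 for Gad2-Cre and 1 for the Purkinje layer, in place of 6, 6 and 7. The Purkinje layer kept 4 Gphn events at a difference of at least 0.2 and 2 at a coverage of at least 50. The 108 nt exon in the table of controls did not pass an FDR of 0.01 or a difference of 0.2, which left 0 events. List genes were 5 for Gad2-Cre at a difference of at least 0.2, in place of 8, and 2 for the Purkinje layer at an FDR of 0.01, in place of 4. The share of events higher in Gad2-Cre cKO than in control was 36.2% over cassettes alone, in place of 41.4%. Differences between the classes passed for 69 of 573 events with a coverage of at least 50 in both tables, in place of 106 of 823, and for 133 of 823 (16.2%) on the log-odds scale. On the log-odds scale 2 differences, neither called, changed sign, to -0.20 for the Gphn 108 nt exon and -0.35 for the Glra2 upstream acceptor, while that of the 105 nt form no longer passed and that of the first mutually exclusive pair newly passed; the cause was not tested. The other 23 values compared on that scale kept their direction and their side of the threshold. For the 20 changes of single listings among them this was fixed in advance. The scale cannot turn the sign of a change, and the authors' FDR was kept. The remaining alternatives gave counts within 1.5 times or unchanged directions. No paired analysis was possible because each group has 1 pooled level per event, and for the same reason no library could be left out. Counts of tetramers in flanking introns were not run, since no genome was used here. Coverage from 22 to 43.1 limits 5 of the 7 Purkinje layer events, and the depth of the samples is unknown.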
